A study of Mus musculus with 42 samples.

Results

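Major urinary proteins (MUPs) are small lipocalins, barrel-shaped carrier proteins that the mouse liver secretes in large amounts and the kidney passes into the urine. There they bind volatile pheromones and act as scent signals themselves. Their transcription in hepatocytes depends on growth hormone and STAT5B, and the pulsed growth hormone secretion of males drives it more strongly than the steadier secretion of females. Circulating MUPs have also been linked to glucose and lipid metabolism. The genes described here were the 10 members Mup1, Mup2, Mup3, Mup7, Mup9, Mup10, Mup11, Mup17, Mup20 and Mup21, chosen by gene symbol, out of 54446 genes in the count table. Since near-identical copies share sequence, their summed counts were used as well and are called the Mup sum.

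RNA was sequenced from the livers of 42 APOE*3-Leiden females, at week 32. APOE*3-Leiden mice carry a human APOE variant that slows the clearance of lipoproteins, and all 3 groups carried it. A group of 10 mice ate maintenance chow, 16 ate the Western-type diet (WTD) and 16 ate the WTD with atorvastatin, a statin that inhibits HMG-CoA reductase. The WTD held 15% cocoa butter, 40.5% sucrose and 1% cholesterol, and 0.05% sodium cholate was added at week 22. The WTD-fed mice were 8 to 14 weeks old when the diet began and had a run-in of 3 weeks before treatment. Atorvastatin was mixed into the diet at 3.0 mg/kg/day and raised to 4.5 mg/kg/day at week 5. The chow-fed mice carry mouse numbers of another series (AZ) than the WTD-fed mice (Gen), so diet and numbering series cannot be told apart.

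All 10 members lay on the minus strand of mouse chromosome 4 (GRCm38), between bases 60066469 and 62150863. The annotation held 49 Mup entries, 22 protein-coding genes and 27 pseudogenes, and all but Mup-ps22 lay on this chromosome. Mup20 (chr4:62050234-62054158), Mup3 (chr4:62083476-62087342) and Mup21 (chr4:62147932-62150863) were the last members of the cluster by position. Mup20 encodes darcin, a pheromone that attracts females to the scent of males. Mup17 lay at chr4:61591929-61595871, and Mup2 at chr4:60135932-60154289. The other members, Mup1, Mup7, Mup9, Mup10 and Mup11, lay between bases 60066469 and 60662411.

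How much of each member can be counted depends on sequence. The lines show 120 coding bases of 5 members, taken from their GENCODE vM21 transcripts, to show which members a read could tell apart. Capitals mark bases that differ from Mup1.
Mup1: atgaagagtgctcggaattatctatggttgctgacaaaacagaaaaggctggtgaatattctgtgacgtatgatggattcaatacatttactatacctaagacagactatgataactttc
Mup17: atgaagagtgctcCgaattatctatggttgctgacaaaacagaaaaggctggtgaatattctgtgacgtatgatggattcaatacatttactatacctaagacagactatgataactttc
Mup20: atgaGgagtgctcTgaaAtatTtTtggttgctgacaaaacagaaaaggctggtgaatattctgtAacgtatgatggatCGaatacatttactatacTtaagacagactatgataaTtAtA
Mup3: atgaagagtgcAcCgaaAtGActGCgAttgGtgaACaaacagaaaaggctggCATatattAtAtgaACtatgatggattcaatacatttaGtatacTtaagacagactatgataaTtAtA
Mup21: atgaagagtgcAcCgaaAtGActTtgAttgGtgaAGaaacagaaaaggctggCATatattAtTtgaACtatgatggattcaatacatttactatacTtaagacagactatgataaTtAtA
In this window Mup17 differed from Mup1 at 1 base, Mup20 at 12, Mup21 at 21 and Mup3 at 23. Mup2 and Mup11 were identical to Mup1 there, and Mup7, Mup9 and Mup10 were identical to Mup17. Over the whole coding sequence Mup3 and Mup21 were 96.34% identical to each other, and Mup20 was 91.16% identical to Mup1. A read pair that aligned equally well to 2 places was not counted for any gene. In Mup3 and Mup21 every stretch of 150 bases, the length of 1 read, occurred in no other gene's transcript. This share was 68.9% for Mup20, 59.6% for Mup17, 27.1% for Mup7, 21.8% for Mup11, 21.7% for Mup9, 17.5% for Mup1, 15.6% for Mup10 and 9.3% for Mup2. For stretches of 300 bases it was 100% for Mup17, 85.4% for Mup20, 73.8% for Mup7, 51.0% for Mup9 and 39.0% for Mup11. It stayed low for Mup1 (22.6%), Mup2 (19.7%) and Mup10 (19.3%). Levels of the near-identical members are therefore uncertain, and the Mup sum leaves out their shared reads too. The share of pairs with more than 1 place, among all pairs that the counting program read, had a median of 5.29% in chow-fed, 4.33% in WTD-fed and 4.69% in atorvastatin-treated mice. The counts of these pairs are not split by gene, and their part in the results was not tested.

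**Figure D1:**
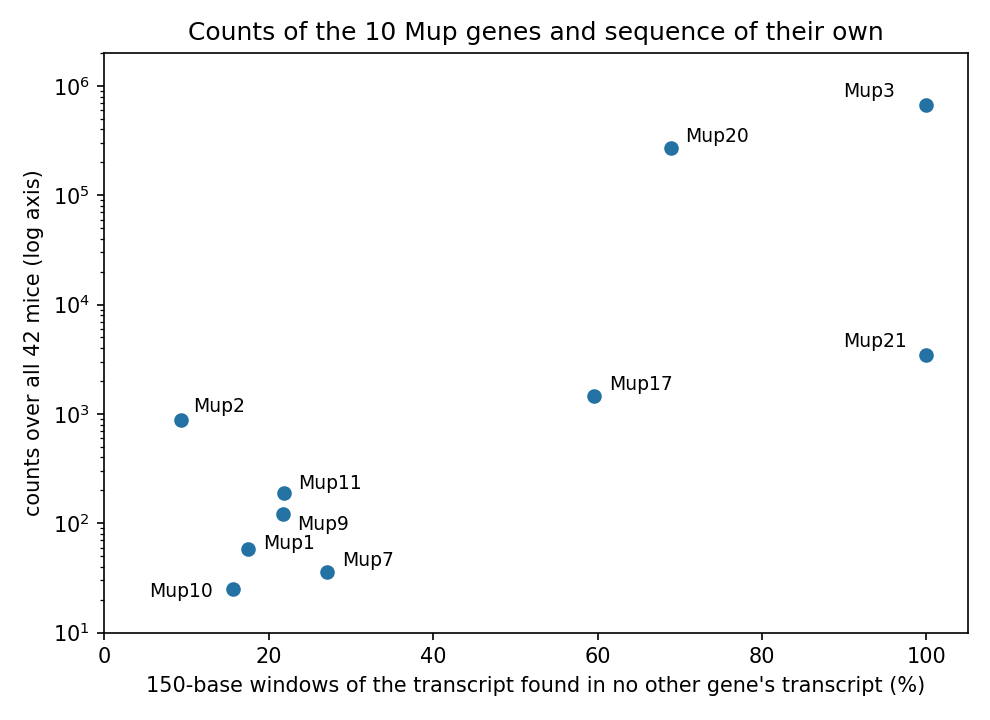
Each point is 1 of the 10 Mup genes. The x axis gives the percent of 150-base windows of its transcript that occur in no other gene's transcript, the y axis its counts over all 42 mice on a log axis. Mup3 (663622 counts) and Mup20 (270936 counts) lie far above the members with little sequence of their own, while Mup21 has 100% unique windows and 3457 counts.

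Gene counts summed to 15661381 in the shallowest and 36224054 in the deepest library. Weakly expressed genes were missed in 9 libraries (3 chow, 5 WTD and 1 atorvastatin), in which over 20% of the genes at a group mean of 1 to 2 CPM (counts scaled to a common library size) had no count, and these are called the weak libraries. Hepatocyte markers were high in each group, with 15 markers summing to 138700 to 197600 CPM in chow-fed, 73200 to 129700 CPM in WTD-fed and 82180 to 154800 CPM in atorvastatin-treated mice. The WTD-fed mouse Gen20 stood apart from the other 15 mice of its group. Its hepatocyte markers were the highest of the group (129700 CPM), and its macrophage (2503 CPM), stellate cell (1225 CPM) and cholangiocyte markers (210.5 CPM) were the lowest. For comparisons with the WTD group, the log2 fold changes of Mup2, Mup3, Mup20 and Mup21 are given with and without it.

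Mup3 and Mup20 made up nearly all of the Mup sum, with 70.5% and 28.8% of its counts over all mice. Of the 10 members, 5 had enough counts to be tested (Mup2, Mup3, Mup17, Mup20 and Mup21). The other 5, Mup1, Mup7, Mup9, Mup10 and Mup11, had 58, 36, 122, 25 and 188 counts in all 42 mice together and did not pass the filter on low counts. Relative to exon length, the median level in chow-fed mice was 1197 CPM per kilobase for Mup3, 79.7 for Mup20, 6.61 for Mup21, 6.44 for Mup17 and 1.27 for Mup2. In WTD-fed mice the order of the first pair was turned, with 564 CPM per kilobase for Mup20 and 251 for Mup3. The medians of Mup21 and Mup17 in chow-fed mice lay within the spread of either gene.

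The first comparison set the diet against chow. Mup3 fell and Mup20 rose in WTD-fed relative to chow-fed mice, and the Mup sum, in which these changes partly offset each other, fell by less than Mup3. Mup17, with few counts, fell as well. In all, 3 of the 5 tested members were called at an adjusted p under 0.01, 1 higher and 2 lower, where 33.5% of the 15574 tested genes were called (17.5% higher and 16.0% lower). P values come from the quasi-likelihood test of edgeR, with Benjamini-Hochberg adjustment across the tested genes.

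Mup3 had 990 CPM in the lowest, 1279 in the median and 1979 in the highest chow-fed mouse. In WTD-fed mice the values were 193, 268 and 1025 CPM. Every WTD-fed mouse lay below the chow median, and only Gen20 reached into the chow range, since the next highest WTD-fed mouse, Gen19, had 497 CPM. The log2 fold change of Mup3 was -2.02 (SE, the standard error, 0.23, adjusted p = 1.97e-09), a 4.06-fold lower level. Without Gen20 it was -2.21.

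Mup20 had 38.5, 74.0 and 164 CPM in the lowest, median and highest chow-fed mouse. In WTD-fed mice it had 51.7, 523.5 and 891 CPM. In 15 of the 16 WTD-fed mice Mup20 lay above every chow-fed mouse, with at least 278 CPM, and Gen20 was the exception. The log2 fold change was 2.55 (SE 0.43, adjusted p = 5.17e-06), a 5.9-fold higher level, and 2.64 without Gen20. Of the 13 tested Mup genes and pseudogenes, Mup20 was the 1 called higher on WTD, where 17.5% of all tested genes were. Mup2, Mup15, Mup16, Mup17, Mup19, Mup-ps10, Mup-ps12 and Mup-ps14 had median counts of 0 to 8.5 in WTD-fed mice, under the minimum of 10. They entered the test through the other groups and could hardly be called higher on WTD, so this count does not set Mup20 apart from them.

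**Figure D2:**
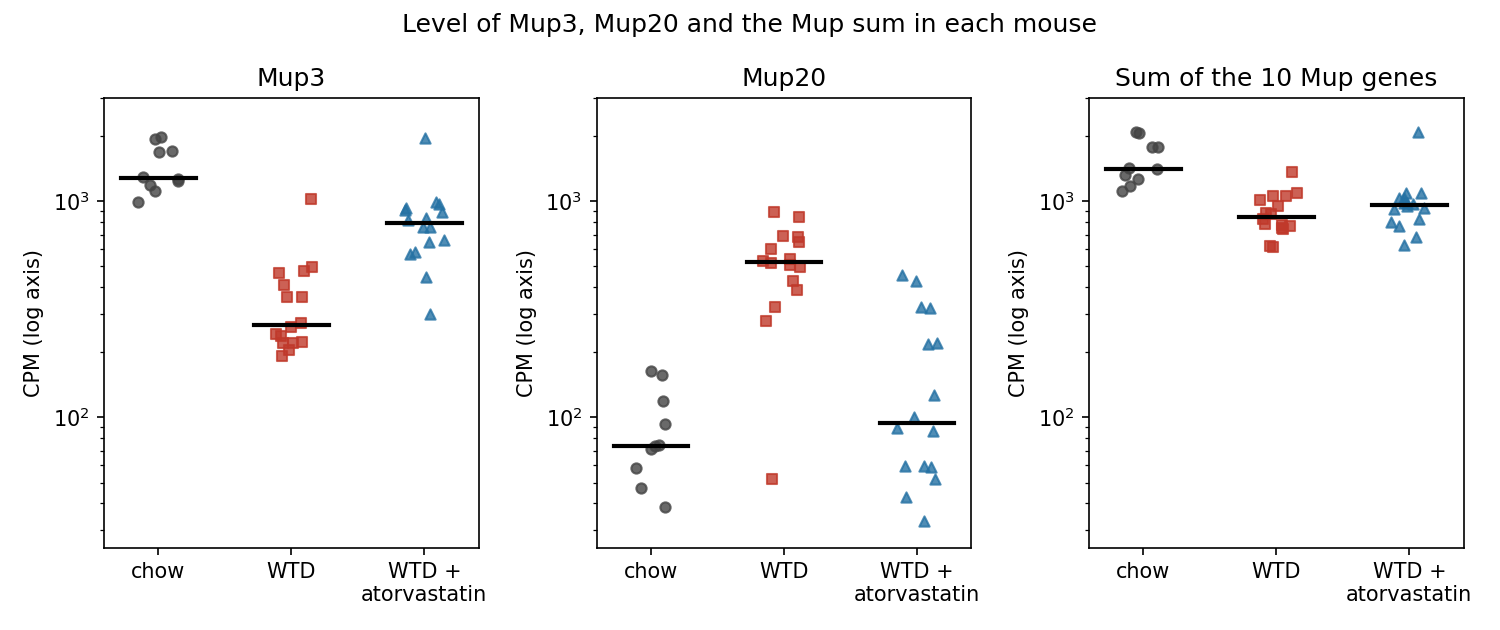
Each point is a mouse (10 chow, 16 WTD, 16 WTD with atorvastatin) and each bar the group median, in CPM on a log axis. Mup3 is lowest in the WTD group (median 268 CPM), Mup20 is highest there (523.5 CPM), and the Mup sum lies at 1414, 848 and 962 CPM in the chow, WTD and atorvastatin groups.

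Mup17 was counted in every chow-fed mouse, with 0.255, 5.97 and 12.4 CPM in the lowest, median and highest mouse. It had no count in 12 of the 16 WTD-fed mice, and the highest of the others had 0.628 CPM. A mouse without a count may still hold up to 3 counts' worth of Mup17 at this depth, counting error only. Over the groups this was 1049 counts in 10 chow-fed mice and 36 counts in 16 WTD-fed mice. The log2 fold change was -5.85 (SE 0.87, adjusted p = 1.74e-07), and for so few counts its size depends on the model. Mup17 entered the test through its counts in chow-fed mice (median 103, against 0 in WTD-fed mice), so its call says less than those of Mup3 and Mup20, which were high enough in every group. The highest WTD-fed mouse lay above the lowest chow-fed mouse, so the groups overlapped.

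Mup2 and Mup21 did not pass the threshold between WTD-fed and chow-fed mice. Mup2 had a median of 1.69 CPM on chow (0 to 7.72) and 0.0798 CPM on WTD (0 to 3.72), at -2.30 on the log2 scale (SE 0.80, adjusted p = 0.0166 in edgeR). Its highest WTD-fed mouse was Gen20, and without this mouse the log2 fold change was -3.12 (adjusted p = 0.00094 in edgeR). Mup21 had a median of 4.48 CPM on chow (1.73 to 9.70) and 3.01 CPM on WTD (1.02 to 7.22). Its log2 fold change was -0.76 (adjusted p = 0.051 in edgeR, 95% interval -1.39 to -0.13), and most mice of both groups overlapped. The highest WTD-fed mouse for Mup21 was again Gen20, and without it the log2 fold change was -0.90 (adjusted p = 0.0178 in edgeR). Without the 9 weak libraries both genes passed, with log2 fold changes of -2.55 for Mup2 (adjusted p = 0.00333 in edgeR) and -1.06 for Mup21 (adjusted p = 0.00781 in edgeR). Gen20 is among these 9 libraries, so this result is not separate from the one without Gen20.

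**Figure D3:**
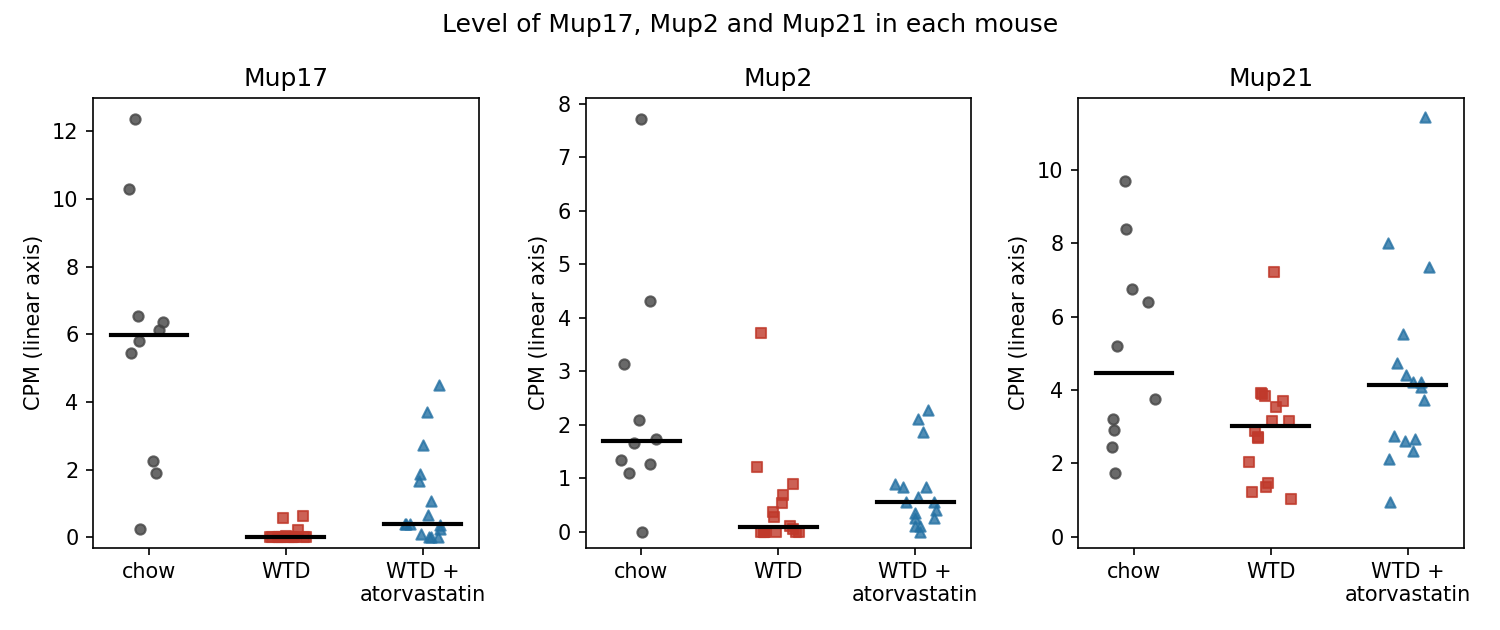
Each point is a mouse and each bar the group median, in CPM on a linear axis. Mup17 has a median of 5.97 CPM on chow and 0 on WTD, with atorvastatin-treated mice spread from 0 to 4.51 CPM, while the groups overlap widely for Mup2 and Mup21.

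Of the 5 members below the filter, Mup7, Mup9, Mup10 and Mup11 had most of their counts in chow-fed mice. Mup11 had 168 counts in the chow group, 1 in the WTD group and 19 in the atorvastatin group. Mup9 had 90, 4 and 28 counts, Mup7 had 34, 0 and 2, Mup10 had 17, 2 and 6, and Mup1 had 29, 19 and 10. Of the 19 counts of Mup1 in WTD-fed mice 16 came from Gen20, and the other 3 from Gen9. When no filter was set, Mup7, Mup9, Mup10 and Mup11 were called lower in WTD-fed than in chow-fed mice and Mup1 was not (adjusted p = 0.37 in edgeR, with Gen20 included). Over all genes 2999 of 26492 were called lower in that fit. Since these 4 members had at most 4 counts in the WTD group, a call could hardly be other than lower. The calls therefore support nothing further about these members, and that of Mup7 rests on 2 chow-fed mice. Of the 10 chow-fed mice, Mup9 was counted in 10, Mup10 and Mup11 in 8, Mup1 in 3 and Mup7 in 2.

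The Mup sum had 1116, 1414 and 2098 CPM in the lowest, median and highest chow-fed mouse, and 614, 848 and 1359 CPM in WTD-fed mice. All 16 WTD-fed mice lay below the chow median, and 1 lay within the chow range. The sum fell by 0.80 on the log2 scale (SE 0.13, adjusted p = 2.29e-06 in edgeR), a 1.75-fold lower level. With all 49 Mup genes and pseudogenes summed, the log2 fold change was -0.87 (adjusted p = 4.16e-07 in edgeR).

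The second comparison set atorvastatin-treated mice against mice on the same diet without the drug. Mup3 and Mup17 were higher and Mup20 was lower in atorvastatin-treated than in WTD-fed mice, each in the direction opposite to its change on the diet. These comparisons share the WTD-fed mice, so their values are not independent. Of the 5 tested members 3 were called, 2 higher and 1 lower, where 7.10% of all tested genes were called, 4.84% higher and 2.26% lower. Mup17, among those called higher, entered the test through groups other than WTD. This split of 754 higher and 352 lower genes was 582 and 479 with RLE scaling, under which the same number of members was called.

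Mup3 had 299, 791 and 1956 CPM in the lowest, median and highest atorvastatin-treated mouse. All 16 mice lay above the WTD median of 268 CPM, and 15 lay within the WTD range because Gen20 reached 1025 CPM. The log2 fold change was 1.20 (SE 0.21, adjusted p = 0.000126 in edgeR), and 1.39 without Gen20. The highest mouse, Gen26, had 1956 CPM, while the next had 991 CPM.

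Mup20 had 33.2, 94.5 and 457 CPM in the lowest, median and highest atorvastatin-treated mouse. All 16 lay below the WTD median of 523.5 CPM. The log2 fold change was -1.65 (SE 0.35, adjusted p = 0.000968 in edgeR), and -1.73 without Gen20. The spread of Mup20 was wide under atorvastatin, with a coefficient of variation of 85.5%, compared with 48.7% on chow and 40.0% on WTD.

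Mup17 was counted in 13 of the 16 atorvastatin-treated mice, with a median of 0.398 CPM and a highest value of 4.51 CPM. Its log2 fold change was 3.51 (SE 0.78, adjusted p = 0.00117 in edgeR), from 361 counts against 36 in the WTD group. The median count was 7.5 with atorvastatin and 0 on WTD, so this call of Mup17 too says less than those of Mup3 and Mup20. Mup2 showed a log2 fold change of 0.61 (95% interval -0.81 to 2.02, adjusted p = 0.69 in edgeR), and 1.43 without Gen20 (adjusted p = 0.182). Mup21 showed a log2 fold change of 0.57 (95% interval 0.01 to 1.14, adjusted p = 0.209 in edgeR), with a median of 4.14 CPM. Without Gen20 the log2 fold change of Mup21 was 0.72 (adjusted p = 0.0829 in edgeR). Neither passed the threshold, and the interval of Mup2 was too wide to exclude a change of several fold.

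The Mup sum did not show these changes. It had 629, 962 and 2096 CPM in the lowest, median and highest atorvastatin-treated mouse, and its log2 fold change against WTD was 0.16 (SE 0.12, 95% interval -0.07 to 0.39, adjusted p = 0.464 in edgeR). Of the atorvastatin-treated mice 11 lay above and 5 below the WTD median.

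**Figure D4:**
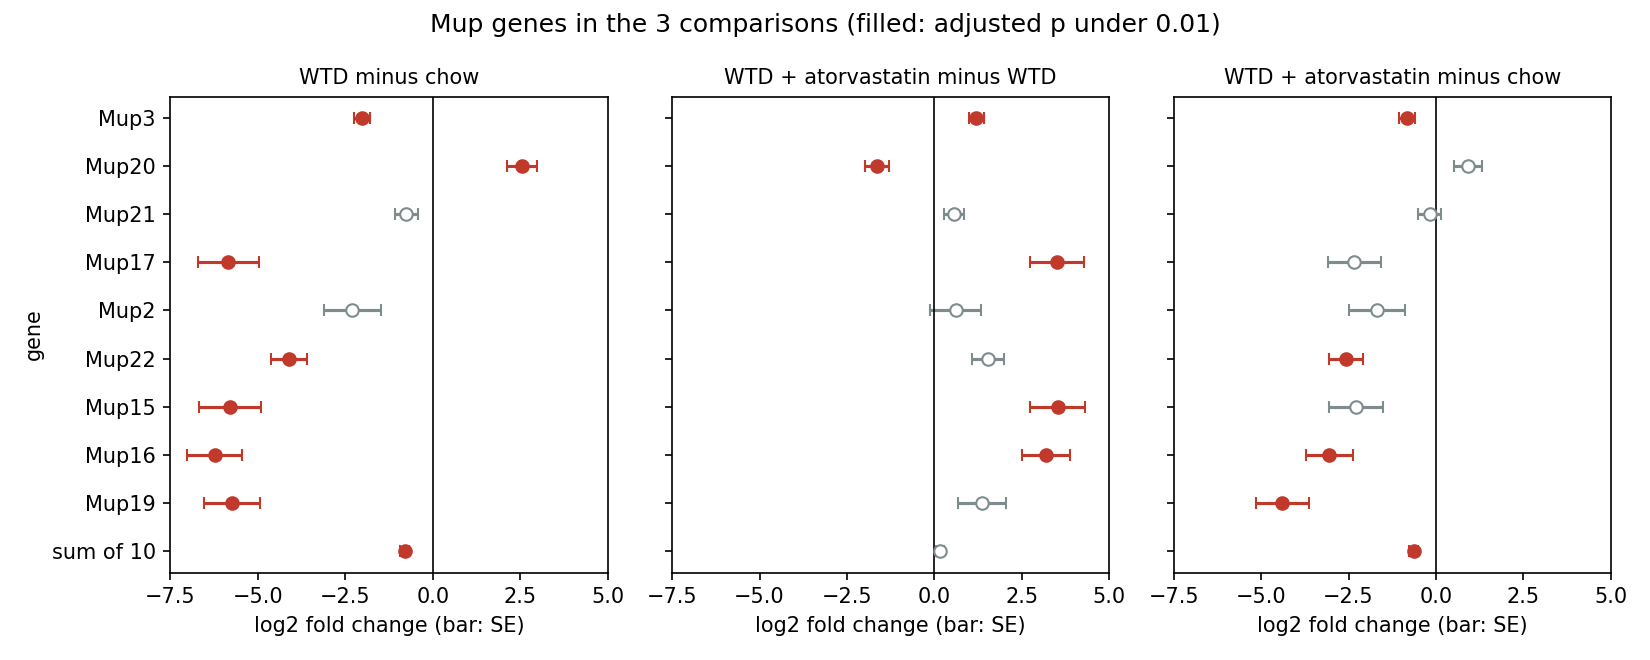
Log2 fold changes (points) with their standard errors (bars) of the 5 tested members, 4 other Mup genes and the sum of the 10 members in the 3 comparisons. Filled points passed an adjusted p under 0.01. Mup20 (2.55 for WTD minus chow, -1.65 for atorvastatin minus WTD) lies opposite to Mup3 (-2.02 and 1.20) in both.

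The third comparison set atorvastatin-treated mice against chow-fed mice. Mup3 was lower, at -0.82 on the log2 scale (SE 0.23, adjusted p = 0.00485 in edgeR), and it was the 1 of 5 tested members called, where 25.0% of tested genes were called, 14.2% higher and 10.7% lower. This call rested on single chow-fed mice, since the adjusted p in edgeR was 0.0118 without AZ6 and 0.0124 without AZ9. Mup20 showed a log2 fold change of 0.90 (95% interval 0.12 to 1.69, adjusted p = 0.0776 in edgeR), with 9 of the 16 treated mice inside the chow range. Mup17 had -2.34 (adjusted p = 0.0123 in edgeR), just outside the threshold, and passed it without any 1 of 6 mice. Mup2 had -1.69 (adjusted p = 0.0956 in edgeR) and Mup21 had -0.19 (adjusted p = 0.704 in edgeR). The Mup sum was lower by 0.64 on the log2 scale (log2 fold change -0.64, SE 0.13, adjusted p = 0.00014 in edgeR).

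The makeup of the Mup sum also differed between groups. Mup3 held 94.3% of the sum in the median chow-fed mouse (87.4% to 95.5%), 34.2% in the median WTD-fed mouse (19.6% to 94.2%) and 90.3% in the median atorvastatin-treated mouse (47.6% to 94.8%). Mup20 held 4.91% (3.27% to 11.5%), 65.5% (4.76% to 80.1%) and 8.72% (4.38% to 51.8%). The other 8 members together stayed below 2% in every mouse, with 1.83% as the highest share. Mup20 had more counts than Mup3 in 0 of 10 chow-fed mice, in 13 of 16 WTD-fed mice and in 1 of 16 atorvastatin-treated mice, and these numbers were the same per exon length. The WTD-fed mice with more Mup3 were Gen5, Gen19 and Gen20, and the treated mouse with more Mup20 was Gen28, with 326 CPM of Mup20 and 299 CPM of Mup3. Gen20 had 94.2% Mup3, a share inside the chow range.

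**Figure D5:**
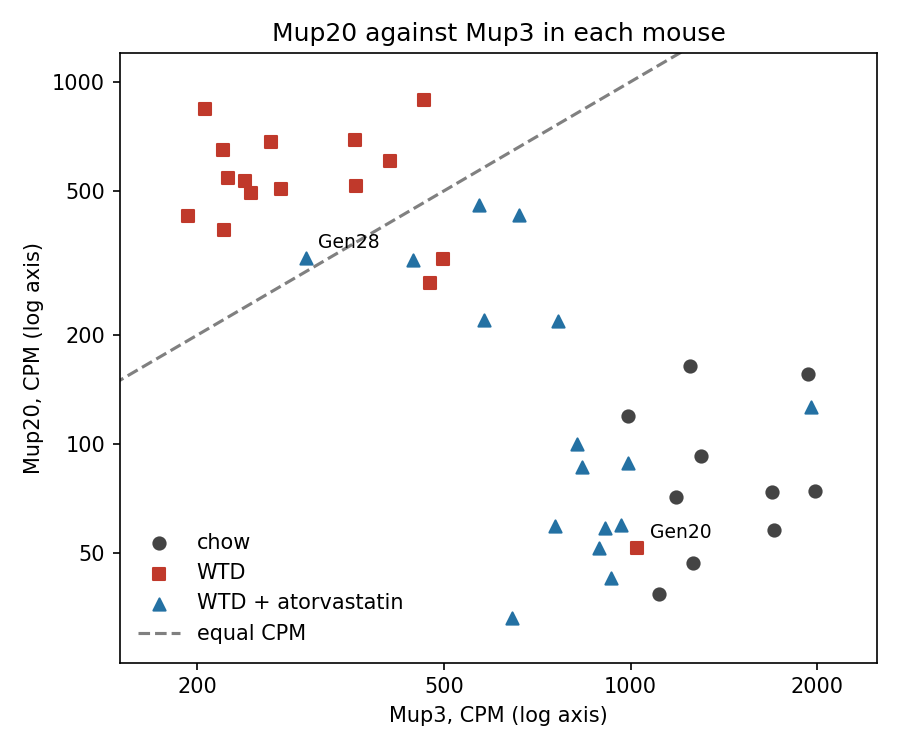
Each point is a mouse, with Mup3 on the x axis and Mup20 on the y axis, both in CPM on log axes, and the dashed line marks equal CPM. Of the WTD-fed mice 13 of 16 lie above the line, the chow-fed mice lie below it, and Gen20 (WTD) lies among the chow-fed and atorvastatin-treated mice.

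Within groups the relation of Mup3 and Mup20 was weak or uneven. Over the 16 atorvastatin-treated mice Pearson's r of log2 CPM was -0.506 (permutation p = 0.0417, 0.0626 after adjustment over the 3 groups) and Spearman's rho was -0.529 (permutation p = 0.0369, adjusted 0.111). Without Gen26 and Gen28, the mice farthest from the Mup3 median, r was -0.669. Over the 16 WTD-fed mice r was -0.682 (permutation p = 0.0143, adjusted 0.0428) and rho -0.291 (permutation p = 0.276, adjusted 0.413). This relation rested on Gen19 and Gen20, since r was -0.0188 without them. Over the 10 chow-fed mice r was 0.116 (permutation p = 0.743, adjusted 0.743) and rho 0.139 (permutation p = 0.707, adjusted 0.707), and r was -0.175 without AZ6 and AZ9.

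Mup3 and Mup21, each the nearest Mup gene to the other by coding sequence, differed widely in level. The bases before their transcription starts (RefSeq, GRCm38.p6, minus strand) are shown because this pair was 93.4% identical over the 250 bases before the RefSeq starts. The printed stretch ends where the GENCODE gene begins. Capitals mark bases that differ from the aligned base of the other gene or have no aligned base there.
Mup3, chr4:62087343-62087567: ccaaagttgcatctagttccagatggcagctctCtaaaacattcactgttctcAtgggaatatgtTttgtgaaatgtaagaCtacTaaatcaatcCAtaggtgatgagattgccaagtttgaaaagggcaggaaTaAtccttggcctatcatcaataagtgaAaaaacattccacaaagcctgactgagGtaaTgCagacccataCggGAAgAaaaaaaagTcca
Mup21, chr4:62150864-62151091: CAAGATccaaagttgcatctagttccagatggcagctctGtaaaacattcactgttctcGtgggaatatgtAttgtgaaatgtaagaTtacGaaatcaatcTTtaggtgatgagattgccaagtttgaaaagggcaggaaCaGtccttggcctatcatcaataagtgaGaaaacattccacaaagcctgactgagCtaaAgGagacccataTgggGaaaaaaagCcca
Of the 10 members, 8 had such an entry, and Mup1 and Mup20 had none. The letters TTCNNNGAA, the core to which STAT5 proteins bind, were searched on both strands in the 250 bases before each start and occurred in none of the 8. Of all 27025 promoters of this length 7.18% held them. The letters TATATAA occurred in 6 of the 8, Mup7 and Mup11 being the others, where 3.26% of all promoters held them. In Mup3 and Mup21 the match lay in the bases after the printed stretch. The windows of the 8 members are related copies, 82.9% to 99.6% identical in pairs, so the matches are not separate cases. Each window ends at the RefSeq start of its gene, so the windows do not cover the same stretch. Aligned to the window of Mup2, that of Mup7 covered 116 bases and that of Mup11 222. The missing match in these genes therefore does not show that they lack these letters. These are matches of letters in a short window and do not show binding.

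Other protein-coding Mup genes of the cluster were also counted. Of the 12 such genes 4 were tested, Mup15, Mup16, Mup19 and Mup22, and all 4 were called lower in WTD-fed than in chow-fed mice, where 16.0% of all tested genes were. Mup15, Mup16 and Mup19 entered the test through their counts in chow-fed mice (medians 47, 60.5 and 144.5, against 0 in WTD-fed mice for each), so this count supports nothing about the list. Mup22, the most counted of them, had 20.5, 38.8 and 51.6 CPM in the lowest, median and highest chow-fed mouse and 0.0523, 1.23 and 13.2 CPM in WTD-fed mice, without overlap. Its log2 fold change was -4.11 (SE 0.51, adjusted p = 1.22e-08 in edgeR). No 150-base stretch of Mup22 was absent from every other gene's transcript, and 10.3% of its 300-base stretches were, so its counts are uncertain. Against WTD, atorvastatin-treated mice had higher Mup15 (log2 fold change 3.52, adjusted p = 0.00141 in edgeR) and Mup16 (3.18, adjusted p = 0.000915). Mup22 (1.53, adjusted p = 0.019) and Mup19 (1.36, adjusted p = 0.213) did not pass the threshold. Of the other members of this list, Mup4 and Mup5 had no count in any mouse.

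Growth hormone signalling is the known driver of Mup transcription. Of 16 genes of this pathway, all tested, 8 were called between WTD-fed and chow-fed mice, 2 higher and 6 lower, where 33.5% of all tested genes were called, 17.5% higher and 16.0% lower. The median log2 fold change was -0.12 (0.03 over all tested genes). Igf1, the main growth hormone target of liver, fell by 0.79 on the log2 scale (adjusted p = 3.23e-12 in edgeR), from a median of 656 to 345 CPM. Igfals, which stabilises circulating IGF1, fell by 1.46 on the log2 scale (adjusted p = 2.52e-11 in edgeR), and the growth hormone receptor Ghr fell by 0.94 on the log2 scale (adjusted p = 9.77e-11 in edgeR). In atorvastatin-treated relative to WTD-fed mice 2 of the 16 were called (7.10% over all tested genes), both higher, namely Ghr (log2 fold change 0.49, adjusted p = 0.000221 in edgeR) and the prolactin receptor Prlr (0.80, adjusted p = 0.000334). Between atorvastatin-treated and chow-fed mice 7 were called, 3 higher and 4 lower, with 25.0% over all tested genes.

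Of 16 transcription factors of liver and of Mup control, which include Stat5b of the list before, 8 were called lower and 0 higher in WTD-fed than in chow-fed mice, where 16.0% of all tested genes were lower and 17.5% higher. The nuclear receptor Nr1i3 fell (log2 fold change -1.46, adjusted p = 1.32e-08 in edgeR). Onecut2, a liver factor of the cut homeobox family, fell by 0.77 on the log2 scale (adjusted p = 2.16e-14 in edgeR). Relative to WTD, 2 genes of the list were called in atorvastatin-treated mice (7.10% over all tested genes), both higher, among them the nuclear receptor Hnf4a (0.33, adjusted p = 0.000639 in edgeR). Between atorvastatin-treated and chow-fed mice 3 were called, 1 higher and 2 lower, with 25.0% over all tested genes. Zhx2, a repressor of several liver genes that also affects Mup genes, had medians of 20.1, 23.8 and 26.2 CPM in the chow, WTD and atorvastatin groups. With atorvastatin it was called higher than on chow, by 0.38 on the log2 scale (adjusted p = 0.00575 in edgeR).

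Mup genes belong to the male-biased genes of mouse liver, and all mice here were female. Of 15 other male-biased genes 12 were tested, and 7 were called between WTD-fed and chow-fed mice, 1 higher and 6 lower. Over all tested genes the shares called were 33.5% in this comparison, 7.10% between atorvastatin-treated and WTD-fed mice and 25.0% between atorvastatin-treated and chow-fed mice. Among them were the serpin Serpina1e (log2 fold change -3.60, adjusted p = 2.48e-10 in edgeR) and the organic anion transporter Slco1a1 (-5.47, adjusted p = 3.03e-07). Slco1a1 had a median of only 0.406 CPM on WTD, against 11.0 CPM on chow, so the size of its change depends on the model. Its call, included in the 6 lower, says less than that of Serpina1e, which had a median of 25.7 CPM on WTD. Between atorvastatin-treated and WTD-fed mice 2 were called, Nudt7 higher (0.90, adjusted p = 0.000184 in edgeR) and the complement protein C6 lower (-0.67, adjusted p = 0.00105), and between atorvastatin-treated and chow-fed mice 5 were, 1 higher and 4 lower. Of 16 female-biased genes 13 were called between WTD-fed and chow-fed mice, 2 higher and 11 lower, with a median log2 fold change of -2.48. In atorvastatin-treated relative to WTD-fed mice 9 of the 16 were called, all higher, with a median log2 fold change of 1.46 (0.00 over all tested genes). Examples were the steroid hydroxylase Cyp3a41b (4.88, adjusted p = 2.97e-05 in edgeR) and the sulfotransferase Sult2a1 (2.89, adjusted p = 3.95e-05). Cyp3a41b and Sult3a1 had medians of only 0.153 and 0.137 CPM on WTD, against 14.8 and 120.5 CPM on chow. Both entered the test through the other groups, so the call of Cyp3a41b says less than that of Sult2a1. The count of 11 lower genes includes both, and that of 9 higher genes includes Cyp3a41b. Against chow, 6 of the female-biased genes were called in atorvastatin-treated mice, 2 higher and 4 lower.

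Markers of cell types moved with the groups as well, where the shares called over all tested genes were 33.5% for WTD against chow and 7.10% for atorvastatin against WTD. Of the 15 hepatocyte markers tested, all 15 were called between WTD-fed and chow-fed mice, 14 lower and 1 higher. Their median log2 fold change was -0.90, with the largest fall in Serpina1c (-1.65), beside -2.02 for Mup3. Between atorvastatin-treated and WTD-fed mice 8 were called, 7 higher and 1 lower, with a median of 0.38. Macrophage markers were called higher in 10 of 13 tested genes on WTD, and their summed level was 438 to 678 CPM in chow-fed, 2503 to 4613 CPM in WTD-fed and 1818 to 3242 CPM in atorvastatin-treated mice, with no count of Itgam in any mouse. Cholangiocyte markers were higher in 8 of 8 (106 to 185, 210.5 to 886 and 240 to 629 CPM in the 3 groups) and stellate cell and fibroblast markers in 6 of 12 (488 to 800, 1225 to 2748 and 1119 to 2567 CPM). Of 9 endothelial markers 2 were called higher and 3 lower, and of 12 tested lymphocyte and neutrophil markers 3 were called higher. Mup20 was called higher on WTD, where 14 hepatocyte markers were called lower and 1 higher. In bulk tissue fewer hepatocytes and less Mup RNA per hepatocyte cannot be told apart. The part of cell composition in the Mup results was not tested.

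After subtraction of group means, the non-Mup genes whose log2 CPM followed the Mup sum best over the 42 mice were Cmah (Pearson's r 0.598), Pnpla7 (0.577), Psmb4 (0.55), Grpel1 (0.543) and Nat8f2 (0.542), and the lowest were Plce1 (-0.55), Csnk1g1 (-0.535) and Ngdn (-0.513). The members themselves had r of 0.715 (Mup3), 0.283 (Mup2), 0.241 (Mup21), 0.203 (Mup17) and 0.067 (Mup20) with the sum that contains them. For Mup3 and Mup20 singly, chosen after their values were seen, the extremes were stronger. Mup3 followed the bile acid transporter Slc10a1 best (0.815, 0.759 without Gen20) and was most inversely related to Alcam (-0.756, -0.692 without Gen20). These values came from the mice on WTD, since r with Slc10a1 was 0.93 in WTD-fed and 0.82 in atorvastatin-treated mice but 0.09 in chow-fed mice, and r with Alcam was -0.81, -0.83 and -0.22. Mup20 followed the annexin Anxa5 best (0.841, 0.793 without Gen20). It was most inversely related to the cytochrome P450 gene Cyp2c37 (-0.881, -0.846 without Gen20). In chow-fed mice r of Mup20 was 0.82 with Anxa5 and -0.46 with Cyp2c37. All are extremes of 15574 genes and are given as a description.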

How the data were processed

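Liver RNA was measured by strand-specific sequencing of mRNA selected on oligo-dT beads in 42 mice, with 1 library per mouse. The authors aligned read pairs to GRCm38 with STAR and deposited counts per gene from HTSeq-count 0.6.1p1, whole numbers without normalization, in which pairs aligned to more than 1 place are left out. The members and gene lists were chosen with earlier results of these data known. Symbols, positions and transcripts came from GENCODE vM21, a later release of the annotation on the same build than the one the authors counted with, and upstream sequences from RefSeq. Totals per mouse were 15661381 to 36224054, which at Mup3 gives at least 3923 counts per mouse and at Mup17 as few as 0. Summary lines of HTSeq-count were left out. Of all pairs that HTSeq-count read, those in no gene were 2.00% to 2.78%, ambiguous pairs 5.43% to 6.57%, and pairs with more than 1 place 4.07% to 5.36%.

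Groups followed the labels. All 42 mice entered 1 fit with edgeR 4.0.16 in R 4.3.3 (filterByExpr with minimum count 10 and total 15, TMM, robust quasi-likelihood test, no covariates). The standard error is the log2 fold change divided by the root of F. P values were adjusted by Benjamini and Hochberg over 15574 genes, and those under 0.01 were called. In separate fits the 10 members, or all 49 Mup entries, were replaced by their sum. CPM use TMM-scaled library sizes, and log2 CPM a prior count of 2. Correlations used 100000 permutations, two-sided. Sequence windows of 150 and 300 bases were compared with all other genes' transcripts, not with the genome.

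The calls and fold changes of the tested members and both Mup sums, but not the gene lists, other Mup genes, pseudogenes or correlations, were recomputed with limma-voom (limma 3.58.1, weighting samples by quality), DESeq2 1.42.0, RLE, upper-quartile, TMM without Mup genes and the 20 most abundant genes, no filter, 10 counts in every mouse, only 2 groups, leaving out the 9 weak libraries or each mouse, adjusted p under 0.05, and shares per exon length. The methods were tested on simulated data. Named genes are the 10 members, other Mup genes with at least 10 counts and the 3 smallest p values per list and comparison. Genes with the highest and the lowest correlation with the Mup sum were named too. Of these, 1 gene is not reported here.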

Additional observations from a re-analysis of the deposited data

How the results depend on the processing

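No log2 fold change of the Mup sum, the sum of all Mup entries or the single tested members changed direction under any alternative. The 1225 alternative values also hold numbers of members called and shares, which have no direction. Most of the 1225 came from fits that left out 1 mouse and so share nearly all mice. The log2 fold change of the Mup sum ranged from -0.893 to -0.753 for WTD minus chow, from 0.117 to 0.248 for atorvastatin minus WTD and from -0.672 to -0.584 for atorvastatin minus chow over other methods, and it stayed on its side of the threshold in each. The number of members called between WTD-fed and chow-fed mice rose from 3 to 7 with no filter, as low members then enter the test, and to 5 without the 9 weak libraries. Over all genes 6247 of 26492 were called with no filter and 5873 of 15799 without the weak libraries, against 5224 of 15574. Between atorvastatin-treated and chow-fed mice the number of members called rose from 1 to 2 with limma-voom, with only the 2 groups, without the weak libraries and at an adjusted p under 0.05, and to 3 with no filter. Over all genes, this comparison called 4974 of 15574 with limma-voom and 3856 of 14633 with only the 2 groups. It called 4581 of 15799 without the weak libraries and 4456 of 26492 with no filter, against 3893 of 15574. Leaving out single mice gave 3 to 4 members for WTD minus chow, 3 for atorvastatin minus WTD and 0 to 2 for atorvastatin minus chow. The call of Mup3 in the last comparison was lost without AZ6 or AZ9 (adjusted p = 0.0118 and 0.0124 from edgeR). Mup17 passed without AZ2, Gen4, Gen17, Gen32, Gen33 or Gen34 (adjusted p = 0.00714, 0.00976, 0.0094, 0.00986, 0.00744 and 0.00549). Mup2 passed between WTD-fed and chow-fed mice without AZ5 or Gen20 (adjusted p = 0.00891 and 0.00094), with DESeq2 (0.00865), limma-voom (5.41e-05) and without the weak libraries (0.00333). AZ5 and Gen20 are both among the weak libraries, so these results are not separate. Over all genes, limma-voom called 3146 and the fit without weak libraries 1664 genes between atorvastatin-treated and WTD-fed mice, against 1106. Except where the filter or number of mice itself explains a count, the cause was not tested. No paired analysis was possible because mouse numbers only name single mice, and no mouse or cage joins the groups. Depth limits Mup1, Mup7, Mup9, Mup10 and Mup11. Judged by stretches of 150 bases, shared sequence limits all members except Mup3 and Mup21. At 300 bases every stretch of Mup17 also occurred in no other gene's transcript.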

Other observations

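Other lipocalins that the liver secretes changed in both directions. Of 12 genes 10 were tested, and 7 were called between WTD-fed and chow-fed mice, 2 higher and 5 lower, where 33.5% of all tested genes were called, 17.5% higher and 16.0% lower. The retinol carrier Rbp4 (log2 fold change -0.98, adjusted p = 2.06e-13 in edgeR), the sphingolipid carrier Apom (-1.11, adjusted p = 1.32e-12) and the complement subunit C8g (-1.04, adjusted p = 1.03e-13) fell. Lcn2, an acute phase lipocalin that binds bacterial siderophores, showed a log2 fold change of -1.27 in atorvastatin-treated relative to WTD-fed mice (adjusted p = 0.00183 in edgeR) and 2.67 relative to chow (adjusted p = 1.7e-07). Like Mup20, Lcn2 was higher on the diet and lower with atorvastatin than on the diet alone.

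Of 32 genes flanking the Mup cluster 27 were tested, and 6 were called between WTD-fed and chow-fed mice, 3 higher and 3 lower, where 33.5% of all tested genes were called, so the flanking genes had no larger share of calls than other genes. The heme synthesis gene Alad showed a log2 fold change of -0.81 (adjusted p = 6.91e-12 in edgeR) and the extracellular matrix gene Svep1 had 3.20 (adjusted p = 1.03e-10). Between atorvastatin-treated and WTD-fed mice 1 of the 27 was called, the copper transporter Slc31a1 (0.41, adjusted p = 0.000449 in edgeR).

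Pseudogenes of the cluster were counted as well. Of the 27, 4 were tested, and all 4 were called lower in WTD-fed than in chow-fed mice, from Mup-ps13 (log2 fold change -2.33, adjusted p = 2.41e-06 in edgeR) to Mup-ps12 (-3.33, adjusted p = 0.000108). Over all tested genes 33.5% were called in this comparison, 16.0% lower. Mup-ps10, Mup-ps12 and Mup-ps14 had median counts of 0.5, 2 and 8.5 in WTD-fed mice, under the minimum of 10, and entered the test through the other groups. The count of 4 therefore supports nothing about the pseudogenes as a set. Mup-ps13, with 7827 counts over all mice, had more counts than 8 of the 10 members. Between atorvastatin-treated and WTD-fed mice Mup-ps13 (1.5, adjusted p = 0.0024 in edgeR) and Mup-ps12 (2.49, adjusted p = 0.00588) were called higher, where 4.84% of all tested genes were. Of their 150-base windows 63.4% (Mup-ps14) to 98.0% (Mup-ps10) occurred in no other gene's transcript.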
